A study of Mus musculus with 50 samples.

Results

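CpG-poor gene body clusters are short stretches of transcribed genes in which a few CpG dinucleotides lie close together, away from any annotated promoter. In the deposited methylation table every measured CpG belonged to a cluster of neighbouring CpGs of the genome and carried the gene body or promoter it fell in. A cluster was taken here when it held 2 to 9 CpGs of the genome, when none of its measured CpGs was assigned to a promoter and when at least 1 was assigned to a gene body. This rule, which used no methylation value, gave 8686 of 51038 clusters (17.0%), assigned to 4653 genes. They spanned a median of 169 bp of the genome, from 5 to 553 bp. Introns held 7301 of them (84.1%), coding exons 853, untranslated regions 324 and other exons 173.

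In mammals most CpGs outside promoters and CpG islands carry methyl groups, and the bodies of transcribed genes are among the methylated regions. DNMT3A and DNMT3B place methyl groups on unmethylated DNA, whereas DNMT1 copies existing methylation at replication. Both de novo enzymes bind methylated histone H3 lysine 36, a mark laid down over gene bodies and, in its dimethylated form, over wide domains between genes. Methylation of a promoter is known for silencing, whereas methylation of a gene body is found in active genes, and some introns hold enhancers whose methylation varies with cell type.

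The samples were soleus muscles, a slow muscle of the lower leg, from male and female C57BL/6 mice that were 12 weeks old. All animals carried floxed Dnmt3a alleles (Dnmt3a flox/flox), so both genotypes shared the floxed locus, and the knockouts (mD3AKO) also carried a Cre transgene driven by the muscle creatine kinase promoter (mCK-Cre), whereas wild-type (WT) animals did not. This promoter becomes active late in myofibre differentiation, so Cre is not directed to satellite cells or to the vascular, immune and connective tissue cells of the muscle, and the deletion was not measured by cell type here. Muscles were taken after a sham treadmill session (rest) or 10, 30 or 60 min after a treadmill run, and methylation was read by reduced representation bisulfite sequencing (RRBS), which sequences fragments cut at CCGG. Of 44 muscles with counts, the WT groups held 5, 5, 5 and 6 animals at rest, 10, 30 and 60 min, and the mD3AKO groups 5, 5, 7 and 6, which gave 21 WT and 23 mD3AKO samples in every comparison below unless stated. Methylation calls measure neither the deletion nor Dnmt3a expression, so genotypes are as labelled. The question that the genotype comparison addresses is which sites lose methylation without DNMT3A, and the time comparison asks whether a bout of exercise moves them.

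Each sample held 12819404 to 41285655 methylation calls, of which 5.18% to 8.08% fell in these clusters. The median cluster had 67.5 to 261 calls per sample. Of the 47355 CpGs of the genome in the clusters, 15555 (32.8%) were measured, and 4324 clusters rested on 1 measured CpG. Of the measured CpGs, 8508 lay within CCGG, the enzyme's own site, and 84.6% of the clusters had at least 1 such CpG. Samples numbered 1 to 25 were all taken at rest or at 60 min and samples 26 to 50 all at 10 or 30 min, so a difference between these sets cannot be told apart from time but was spread over both genotypes. WT sample 32, taken at 30 min, had the lowest pooled level in its group, at 54.4%. Promoters of muscle marker genes could be checked for only 2 of 12 genes, where the mean WT level was 11.5% for Acta1, skeletal actin, on 1 CpG, and 1.77% for Casq2, slow-type calsequestrin, on 5 CpGs. Among blood cell genes the promoter of Csf1r, the receptor of a macrophage growth factor, averaged 65.8% ± 13.1 (SD, n = 21) for WT over 3 CpGs, against a lower mean of 49.2% ± 16.4 (SD, n = 23) for mD3AKO, and its part in the results was not tested. The endothelial receptor gene Kdr, the only one covered of 6 endothelial genes, was at 1.47% in WT and 1.21% in mD3AKO.

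The 6 sequences that follow are clusters described in detail below, chosen to span low, middle and high WT levels. They are shown 5′ to 3′ on the plus strand of GRCm38, and capitals mark the measured CpGs. The remaining CpGs of each cluster are in lower case and were not measured in every sample.
Pknox2, chr9:37053612-37053703: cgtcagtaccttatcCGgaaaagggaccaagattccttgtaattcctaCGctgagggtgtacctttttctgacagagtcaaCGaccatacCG
Casz1, chr4:148885950-148886047: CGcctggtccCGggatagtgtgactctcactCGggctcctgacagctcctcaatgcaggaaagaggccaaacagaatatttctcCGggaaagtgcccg
Slc9a4, chr1:40625434-40625630: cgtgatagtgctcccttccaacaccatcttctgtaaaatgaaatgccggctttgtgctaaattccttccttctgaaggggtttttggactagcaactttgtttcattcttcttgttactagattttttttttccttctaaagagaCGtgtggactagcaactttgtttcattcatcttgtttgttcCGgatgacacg
Tmem131l, chr3:83934450-83934550: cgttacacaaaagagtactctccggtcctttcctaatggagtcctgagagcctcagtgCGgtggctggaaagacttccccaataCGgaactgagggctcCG
Snx33, chr9:56924800-56925074: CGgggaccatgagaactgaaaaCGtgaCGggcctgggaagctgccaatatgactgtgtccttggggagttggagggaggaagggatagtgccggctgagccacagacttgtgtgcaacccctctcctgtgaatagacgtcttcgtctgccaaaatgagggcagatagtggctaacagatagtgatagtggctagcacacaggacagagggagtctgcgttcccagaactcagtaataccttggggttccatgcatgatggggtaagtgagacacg
Sox6, chr7:115487924-115488045: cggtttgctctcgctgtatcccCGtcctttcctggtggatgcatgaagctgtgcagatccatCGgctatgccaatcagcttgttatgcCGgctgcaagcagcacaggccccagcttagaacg
All 6 lie in introns. They are 92 to 275 bp long, with 39.6% to 57.1% G and C, and hold 5 to 8 CpGs each.

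In WT muscle these clusters were mostly methylated, and in mD3AKO muscle their mean level was slightly lower. Averaged over the 8686 clusters, the level ran from 58.5% to 66.0% in the WT samples, with a mean of 62.8% ± 2.19 (SD, n = 21), and from 56.6% to 63.5% in the mD3AKO samples, with a mean of 60.5% ± 1.91 (SD, n = 23). The ranges overlapped, and 19 of 23 mD3AKO samples lay under the WT mean. The difference was -2.31 percentage points in all samples, -2.12 in samples 1 to 25 and -2.50 in samples 26 to 50. It was -2.26 in males and -2.37 in females. The mice at rest differed by -1.42 points and those at 10, 30 and 60 min by -1.74, -3.27 and -2.70, which are descriptions without a test.

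**Figure D1:**
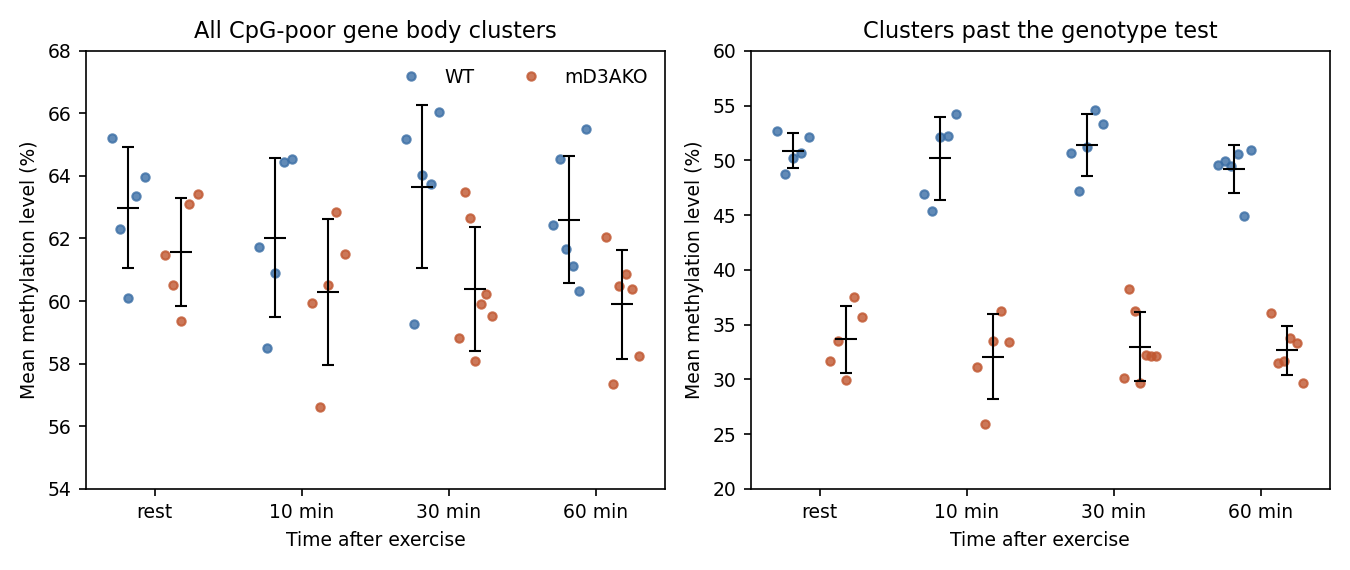
Mean methylation level in percent of all 8686 CpG-poor gene body clusters (left) and of the 97 that passed the genotype test (right) in each sample, by time after exercise. Points are muscles, dashes and bars are group means and SDs; on the left the genotypes overlap at every time, and on the right they are apart because the test chose the clusters.

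Single clusters spread widely around this mean. The median WT level was 69.7%, with 3180 clusters above 80% and 857 under 20%. The median difference between genotypes was -1.58 percentage points, with an interquartile range from -4.94 to 0.93, and 5769 (66.4%) were lower in mD3AKO. Over all clusters of the table the median was -0.46 and 62.4% were lower. A mean loss of 10 points or more was seen in 714 of the gene body clusters (8.22%), and a gain of that size in 71 (0.82%), against 4.99% and 0.64% of all clusters. The sets differ in level, since the mean of the WT and mD3AKO levels was under 20% in 11.0% of the gene body clusters and 33.3% of all clusters. Where that mean was 60% to 80%, such a loss was seen in 10.0% and 7.61%, and from 40% to 60% in 14.4% and 12.4%. The part of level in these comparisons with all clusters was not tested.

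Of the 8686 clusters, 97 (1.12%) changed with genotype in edgeR's quasi-likelihood test (Benjamini-Hochberg adjusted p under 0.05 over all 51038 clusters, written below as edgeR adjusted p), and all 97 fell in mD3AKO. Over all clusters 1.09% passed the same test, and 1.08% did so with a loss, so the share was close to that of the table as a whole. At an unadjusted p under 0.05 there were 938 clusters (10.8%), against 9.56% of all clusters. The likelihood ratio test of edgeR called 307 clusters, against 2.84% of all clusters, a quasi-binomial model 256, against 2.54%, and limma 159, against 1.75%. The 97 clusters lay in 95 genes on 19 chromosomes, with 82 in introns, 7 in coding exons, 4 in untranslated regions and 4 in other exons. Their losses ran from -36.4 to -4.25 percentage points, with a median of -17.3, and in 40 of them the mD3AKO mean was under 50% of the WT mean. At least 18 of the 23 mD3AKO samples were under the WT mean in each, and all 23 in 30 of them. In 95 of the 97 the difference had the same sign at all 4 times, against 1751 (20.2%) of all 8686. Over all 8686 the mD3AKO mean was under 50% of the WT mean in 180. The test chose the 97 in these same samples, so these counts are not separate evidence of a loss.

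Among clusters with a high WT level, the genes concerned ranged from a transcription factor to ion transport and mitochondrial translation. The cluster with the lowest p lay in an intron of Casz1, a zinc finger transcription factor, at chr4:148885951-148886034. Its level was 41.0% to 82.3% in WT samples (median 70.9%) and 32.6% to 60.4% in mD3AKO samples (median 46.4%), a difference of -23.7 points (edgeR adjusted p = 8.25e-06). In Tmem131l, a transmembrane protein gene, the cluster at chr3:83934508-83934550 ran from 71.8% to 96.3% in WT (median 87.2%) and from 25.3% to 86.4% in mD3AKO (median 59.8%), with a difference of -28.5 points (edgeR adjusted p = 1.59e-05). The spread between mD3AKO animals was wide here, with an SD of 16.9 against 6.86 points in WT. Slc9a4 encodes a sodium/proton exchanger. Its cluster at chr1:40625580-40625621 was at 56.6% to 83.7% in WT (median 78.0%) and 33.2% to 72.3% in mD3AKO (median 56.1%), a difference of -22.7 points (edgeR adjusted p = 2.28e-05). Sars2, the mitochondrial seryl-tRNA synthetase, was the only one of the 13 clusters plotted by sample that lies in a coding exon, at chr7:28747525-28747544. It ran from 53.6% to 89.6% in WT (median 77.2%) and from 33.6% to 73.1% in mD3AKO (median 56.7%), with edgeR adjusted p = 0.000245. In each of these 4 clusters the genotypes overlapped, although all 23 mD3AKO samples lay under the WT mean in all but Tmem131l, where 21 did.

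The only cluster of the 8686 in which every mD3AKO sample lay under every WT sample was in an intron of Pknox2, a homeobox transcription factor that pairs with PBX proteins, at chr9:37053627-37053702. In all clusters of the table this held for 4 (0.00784%). Pknox2 was at 23.3% to 52.4% in WT (median 36.0%) and 0.21% to 23.0% in mD3AKO (median 13.0%), with 180 to 1657 calls per sample and a log2 odds ratio of -1.98 ± 0.31 (SE; edgeR adjusted p = 0.000198). Its group means in WT were 31.0%, 45.0%, 32.6% and 36.1% at rest, 10, 30 and 60 min, and in mD3AKO 18.6%, 12.9%, 11.8% and 12.7%. The separation was narrow, since the lowest WT sample and the highest mD3AKO sample differed by less than 1 point.

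The 3 other clusters named at intermediate WT levels lay in genes of membranes, actin and the extracellular matrix. In Tmem51, a membrane protein gene, the cluster at chr4:142060822-142060881 ran from 10.6% to 41.2% in WT (median 26.3%) and from 4.41% to 19.9% in mD3AKO (median 9.97%; edgeR adjusted p = 0.000514). Wasf2 encodes a WAVE protein that drives actin branching, and its cluster at chr4:133159276-133159291 ran from 0% to 45.5% in WT (median 19.1%) and from 0% to 14.0% in mD3AKO (median 1.52%; edgeR adjusted p = 0.000745). Most mD3AKO samples were thus close to unmethylated there. Adamts17, a secreted metalloproteinase, was at 6.77% to 48.0% in WT (median 26.6%) and 5.59% to 34.5% in mD3AKO (median 10.1%) at chr7:66927839-66927933 (edgeR adjusted p = 0.00226). In Adamts17 20 of 23 mD3AKO samples were under the WT mean, and in Tmem51 and Wasf2 all 23 were.

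At the 5 named clusters with a WT mean under 20%, the median mD3AKO sample lay between 0% and 8.37%. Snx33, a sorting nexin of endocytosis, had the lowest WT mean of the 97, 5.47% ± 3.06 (SD, n = 21), against 1.21% ± 1.95 (SD, n = 23) at chr9:56924800-56924827 (edgeR adjusted p = 0.00382), and the median mD3AKO sample was at 0%. Macf1 joins actin to microtubules. Its cluster at chr4:123527755-123527826 was at 1.17% to 18.2% in WT (median 11.1%) and 0.43% to 10.6% in mD3AKO (median 3.65%; edgeR adjusted p = 0.0104). Ralgds, an activator of Ral GTPases, was at 14.2% ± 8.32 (SD, n = 21) across WT samples and 5.06% ± 4.97 (SD, n = 23) across mD3AKO samples at chr2:28534586-28534660 (edgeR adjusted p = 0.0113). The gene model Gm49337 was at 17.3% ± 7.35 (SD, n = 21) and 7.82% ± 4.62 (SD, n = 23) at chr4:116177342-116177449 (edgeR adjusted p = 0.0283). Por, the reductase that feeds electrons to microsomal cytochrome P450 enzymes, was at 15.1% ± 7.79 (SD, n = 21) and 7.08% ± 4.21 (SD, n = 23) at chr5:135673192-135673256 (edgeR adjusted p = 0.0429). In these 5, the genotypes overlapped and 22 or 23 of the 23 mD3AKO samples were under the WT mean.

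**Figure D2:**
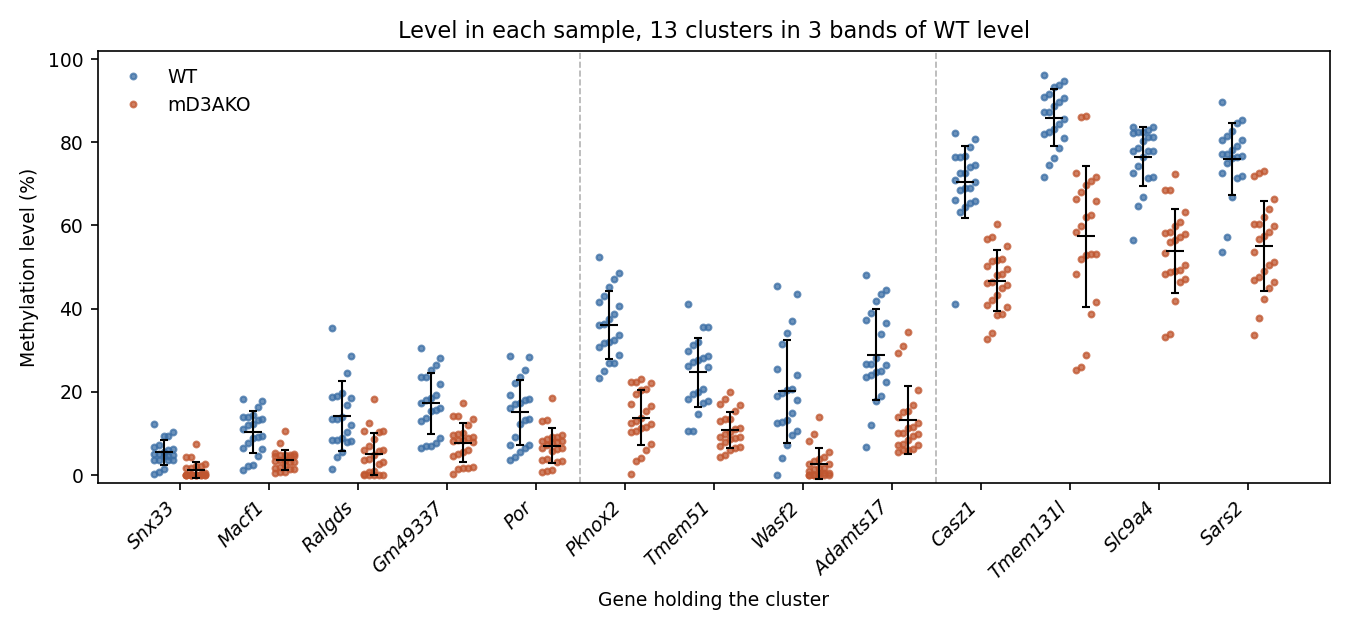
Methylation level in percent in each WT and mD3AKO sample for 13 clusters, named by gene and grouped by WT mean level (under 20%, 20% to 60%, 60% and above, separated by dashed lines), with group means and SDs. All 13 were lower in mD3AKO; only in Pknox2 do the points not overlap.

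Within a printed cluster the loss was uneven from CpG to CpG. In Pknox2 the CpG at base 49 had means of 56.9% in WT and 24.4% in mD3AKO, a difference of -32.5 points, while the CpG at base 91 differed by -13.6. In Casz1 the CpG at base 11 averaged 70.2% ± 9.69 (SD, n = 21) for WT against 42.7% ± 7.16 (SD, n = 23) for mD3AKO, and the CpG at base 85 at 28.5% ± 17.9 and 23.6% ± 15.1. The levels of neighbouring CpGs in WT could also lie far apart, since the CpG at base 1 of Casz1 was at 82.9% while that at base 85 was at 28.5%. In Slc9a4 the CpGs at bases 146 and 187 differed by -27.3 and -18.0 points. In Tmem131l the 3 CpGs differed by -31.6, -29.9 and -23.0 points, and in Sox6 by -24.9, -23.6 and -20.1. The CpG at base 23 of Snx33 was at 1.24% in WT and 0.79% in mD3AKO, and most of the loss in that cluster was at base 28, which was at 10.3% in WT and 2.22% in mD3AKO. These CpG values carry no test of their own.

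The size of the loss went with the level of the cluster. With clusters divided by the mean of their WT and mD3AKO levels, the median difference was -1.57 points under 20%, -2.97 from 20% to 40%, -2.66 from 40% to 60%, -2.04 from 60% to 80% and -0.88 above 80%. The share that passed the genotype test fell from 2.92% in the lowest band to 2.04%, 1.13%, 1.02% and 0.23%. The test works on the odds of methylation, where a given number of points weighs more near 0 or 100%. The part of that scale in these shares, which were lowest above 80%, was not tested.

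CpG-poor clusters at promoters and CpG-poor clusters outside genes share the range of CpG numbers with the gene body clusters. The 1069 promoter clusters had a mean WT level of 47.0%, a median difference of -1.37 points, 65.6% lower and 14 (1.31%) past the test. Their medians, -3.04 points from 40% to 60% and -1.02 above 80%, were further from 0 than those of the CpG-poor gene body clusters, -2.66 and -0.88. In the other bands they were nearer to 0. There were 10334 CpG-poor intergenic clusters, with a mean WT level of 64.4%, and their median difference was -0.90 points, with 60.1% lower and 50 (0.48%) past the test. Clusters of 10 or more CpGs in gene bodies numbered 10120, with a mean WT level of 49.2%, a median difference of -0.94 points, 67.0% lower and 183 (1.81%) past the test. Median calls per cluster were 117 in the CpG-poor gene body clusters, 115 in the intergenic ones and 210 in the CpG-rich ones. From 20% to 40% the medians were -2.97 points in the CpG-poor gene body clusters, -2.26 in the intergenic and -3.32 in the CpG-rich gene body clusters, and from 60% to 80% they were -2.04, -0.95 and -2.04. In each of the 5 bands of mean level the intergenic median was nearer to 0 than that of the CpG-poor gene body clusters. Under 20%, however, the CpG-rich gene body median, -0.30 points, was nearer to 0 than the intergenic one, -1.05. These are descriptions of clusters measured in the same muscles, and no test of the difference between classes was made.

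**Figure D3:**
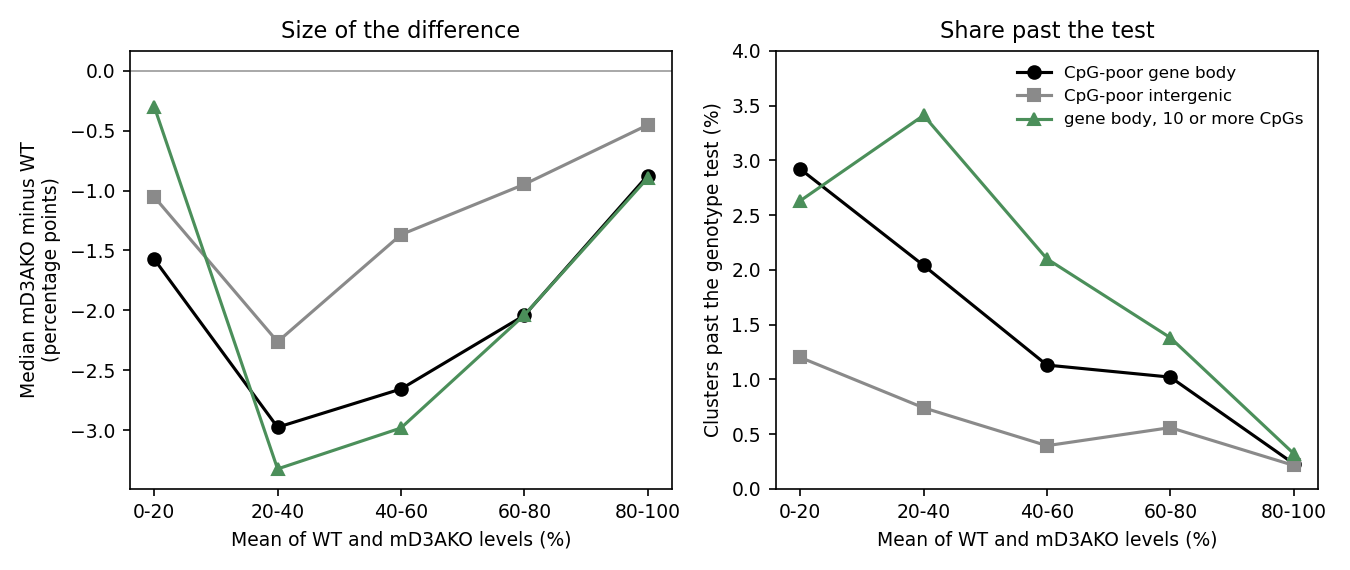
Median mD3AKO minus WT difference in percentage points (left) and percent of clusters past the genotype test (right), by the mean of the WT and mD3AKO levels in percent, for 8686 CpG-poor gene body, 10334 CpG-poor intergenic and 10120 CpG-rich gene body clusters. Intergenic clusters (squares) sit nearer to 0 than CpG-poor gene body clusters (circles) in all 5 bands in both panels.

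Along the gene, CpG-poor clusters were a little less methylated toward the start. With each gene divided into 3 equal parts from its start to its end, 2764 clusters in the first part had a mean WT level of 58.8%, 2750 in the middle part 64.1% and 3137 in the last part 65.1%, and the median differences were -1.70, -1.55 and -1.51 points. Past the test were 38, 28 and 31 clusters. Coding exons were more methylated than introns, with WT means of 71.5% and 61.9% and median differences of -1.32 and -1.61 points. Clusters in sequence soft-masked as repeats numbered 1185, with a mean WT level of 73.9% and a median difference of -0.94 points, and 6 (0.51%) passed the test. Outside repeats 7501 clusters had a mean WT level of 61.1% and a median difference of -1.70 points, and 91 (1.21%) passed.

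The 97 clusters past the test lay at distances close to those of all members. Their median distance to the gene's start was 45520 bp, against 46879 bp over all members, and to the nearest cluster of 10 or more CpGs 16588 bp against 19261 bp. G and C made up 49.2% of the 500 bp around them, against 47.8%. They had more calls, a median of 199.5 against 117 per sample, and fewer rested on 1 measured CpG, 23 (23.7%) against 49.8%. Their WT level was between 20% and 80% in 64 (66.0%), against 53.5% of all members. The part of depth and of the number of measured CpGs in which clusters passed was not tested.

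In these clusters the bases next to the CpG went with the size of the loss. DNA methyltransferases contact the bases flanking the CpG, and their activity on naked DNA varies with them. CpGs were divided into those within CCGG, the cutting site, and others by whether C or T followed the CpG on neither, 1 or both strands. Within CCGG, 8508 CpGs had a mean WT level of 58.9% and a mean difference of -2.08 points. Outside it, the mean difference was -2.22 points in 1511 CpGs with neither strand, -2.61 in 3686 with 1 strand and -2.67 in 1850 with both strands. Among CpGs with a mean level of 40% to 80% the corresponding values were -2.56, -2.60, -3.52 and -3.70 points, and above 80% they were -1.03, -1.09, -1.24 and -1.19. Over all CpGs of the table with a mean level of 40% to 80% the same 4 classes gave -1.86, -2.38, -2.90 and -3.28 points. Without a limit on the level they gave -1.06, -0.76, -0.77 and -0.86 there, so the loss over all CpGs of the table was larger within CCGG than outside it. A CpG in CCGG lies at the end of a fragment, and the part of that position was not tested.

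**Figure D4:**
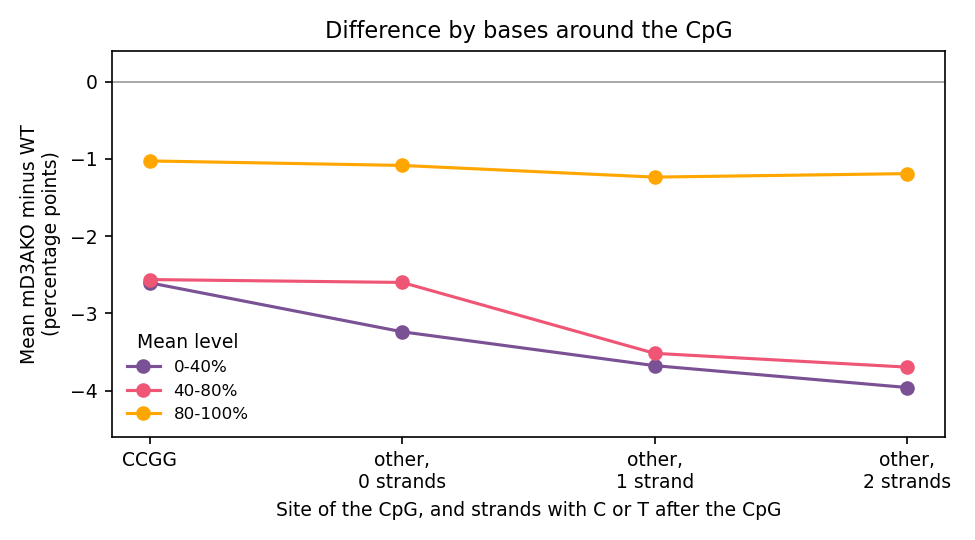
Mean mD3AKO minus WT difference in percentage points at single CpGs of the CpG-poor gene body clusters, for CpGs in CCGG and for other CpGs with C or T after the CpG on 0, 1 or 2 strands. Lines are bands of mean level; from 40% to 80% the mean moves from -2.56 in CCGG to -3.70 with both strands, while above 80% the 4 values lie between -1.03 and -1.24.

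In a list of muscle transcription factors, 74 clusters lay in 21 genes, 58 were lower in mD3AKO and the median difference was -3.09 points. Past the test were 2 (2.70%), against 1.12% of all CpG-poor gene body clusters and 1.09% of all clusters. A share that rests on 2 clusters does not set the list apart. The median WT level in the list was 51.2%, against 69.7% over all CpG-poor gene body clusters. At mean levels of 40% to 60% the CpG-poor gene body clusters had a median difference of -2.66 points. The part of level in the list median was not tested. Sox6, which represses slow fibre genes, had a cluster at chr7:115487946-115488013 that was at 38.5% to 96.9% in WT (median 70.6%) and 26.3% to 60.6% in mD3AKO (median 45.8%), a difference of -22.9 points (edgeR adjusted p = 0.00487). All 23 mD3AKO samples were under the WT mean, although the ranges overlapped. Nfix, a factor of the switch from embryonic to fetal myogenesis, fell in an untranslated region from 24.3% ± 11.2 (SD, n = 21) to 10.8% ± 4.87 (SD, n = 23; edgeR adjusted p = 0.0145).

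In the other 5 lists, which held 10 to 40 clusters each, no cluster passed the test, and at the share of 1.12% over all CpG-poor gene body clusters fewer than 1 would in each. The insulin, AMPK and glycogen list had 25 clusters in 16 genes, with a median WT level of 46.7%. It had a median difference of -3.96 points, and 3 clusters with an unadjusted p under 0.05. Its lowest p was in Tbc1d4, which encodes the AS160 protein that holds glucose transporters inside the cell, where the cluster at chr14:101477770-101477845 averaged 30.8% ± 13.0 (SD, n = 21) for WT against 19.2% ± 7.47 (SD, n = 23) for mD3AKO (edgeR adjusted p = 0.201). This cluster passed under the quasi-binomial model, with adjusted p = 0.0327, which rose to as much as 0.110 when single samples were left out. The sarcomere and cytoskeleton list had 40 clusters with a median of -0.87 points and 6 with an unadjusted p under 0.05, and Dysf, a membrane repair protein, was at 50.1% ± 8.02 (SD, n = 21) and 41.3% ± 9.44 (SD, n = 23) at chr6:84012409-84012464 (edgeR adjusted p = 0.225). Excitation-contraction coupling genes had 24 clusters with a median of -1.53 points and 2 with an unadjusted p under 0.05. The lowest p there was in Asph, which encodes junctin among other products, at a single CpG (chr4:9655784) that was higher in mD3AKO, at 98.7% ± 4.23 (SD, n = 23) against 95.0% ± 8.68 (SD, n = 21; edgeR adjusted p = 0.402). The 10 clusters of mitochondrial and fatty acid oxidation genes had a median of -0.87 points and none with an unadjusted p under 0.05. The lowest p there belonged to Nrf1, a factor of nuclear genes for mitochondria, at 1 CpG with 20 to 200 calls per sample. Its means were 15.0% in WT and 7.86% in mD3AKO (edgeR adjusted p = 0.603). Marker genes of other cell lineages in muscle had 19 clusters with a median of -1.94 points and 2 with an unadjusted p under 0.05. The lowest p was in Ncam1, a neural adhesion molecule, at 1 CpG with 8 to 157 calls per sample. Its means were 97.0% in WT and 85.5% in mD3AKO (edgeR adjusted p = 0.155).

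Some clusters carry the name of a long gene model that spans other genes. The gene with most clusters was Gm20388, with 77, of which 34 lie inside another coding gene of GENCODE M21, and none of the 77 passed the test (edgeR, with a median difference of -2.36 points). Fgfr2, a fibroblast growth factor receptor, was the only gene with more than 1 cluster past the test, with 3 of 43. All 3 lie inside a second coding gene within the long Fgfr2 model. Those at chr7:132681660-132681681 and chr7:132658328-132658399 lie in Lhpp, a phosphatase gene, with WT and mD3AKO means of 82.0% and 64.4% and of 10.2% and 2.33%. The last, at chr7:132726682-132726753, lies in Fam53b, with means of 61.9% and 43.3%. Their assignment to Fgfr2 or to the inner gene is uncertain. Over all members 292 (3.36%) overlap 2 or more coding genes. Csmd2, Camta1, Cdh13 and Sdk1, neuronal or adhesion genes with 20, 19, 16 and 16 clusters, had none past the test, and Gabbr2, a GABA receptor subunit with 16, had 1. The share past the test was 1.12% over all CpG-poor gene body clusters and 1.09% over all clusters. At that share fewer than 1 cluster would pass in each of these genes and in Gm20388. A lack of calls thus does not set a gene apart.

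At a single time point few clusters could be called. At rest and at 10 and 60 min, 0 of 8686 passed edgeR's quasi-likelihood test, against 0.00392%, 0.0137% and 0.00784% of all clusters, and at 30 min 2 passed, against 0.0176%. At rest, then 10, 30 and 60 min, 426, 500, 439 and 450 clusters had an unadjusted p under 0.05 (4.90%, 5.76%, 5.05% and 5.18%). With no effect at all 434.3 would, so these counts are close to that number. Other tests gave 32, 52, 36 and 23 clusters by edgeR's likelihood ratio test, 0, 2, 22 and 2 by a quasi-binomial model, and 3, 1, 4 and 4 by limma, in the order rest, 10, 30 and 60 min. The shares of all clusters called by these other tests at single times were not counted, so their counts do not set the gene body clusters apart. Of the 2 clusters past the test at 30 min, named after their values were seen, 1 was that of Slc9a4, which at 30 min was at 76.5% to 82.9% in the 5 WT samples and 41.8% to 58.5% in the 7 mD3AKO samples. The groups did not overlap, but the test chose this cluster in these same samples, so this is not separate evidence of a loss. How many of all clusters separate in this way at 30 min was not counted. The other lies on chromosome 18 and is not named here. With 5 to 7 animals per group the tests at 1 time rest on fewer samples than the pooled comparison, in which all 4 times share the genotype effect.

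No cluster passed the threshold for time after exercise. For time over both genotypes, edgeR's quasi-likelihood test called 0 of 8686, against 0.0% of all clusters, with 187 at an unadjusted p under 0.05 (2.15%, against 2.85% of all clusters). The likelihood ratio test called 56, and the quasi-binomial model and limma 0. The interaction of genotype and time also gave 0 calls, against 0.0% of all clusters, with 222 at an unadjusted p under 0.05 (2.56%, against 2.73% of all clusters), 66 by the likelihood ratio test and 0 by the other tests. Against rest, 10, 30 and 60 min gave 0 calls each in WT and in mD3AKO, also 0.0% of all clusters, with 198 to 369 clusters at an unadjusted p under 0.05. The likelihood ratio test gave 20, 11 and 13 in WT and 2, 9 and 6 in mD3AKO, and the quasi-binomial model and limma 0 in all 6 comparisons. For time, for the interaction and against rest, the share of all clusters called by the likelihood ratio test was not counted. Its counts thus do not set the gene body clusters apart. The median change from rest at 10, 30 and 60 min was -0.61, 0.47 and -0.29 points in WT and -0.89, -0.86 and -1.11 in mD3AKO. The changes at 10 and 30 min cross the sets of sample numbers and that at 60 min does not.

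The clusters with the lowest p for time and for the interaction each rest on 1 CpG. For time it was Tenm4, a teneurin adhesion molecule, at chr7:96835777, with group means of 92.2%, 100%, 96.1% and 99.8% in WT and 95.2%, 100%, 87.1% and 98.3% in mD3AKO at rest, 10, 30 and 60 min. It was near fully methylated throughout, and its adjusted p in edgeR's test was 1. For the interaction it was Wipf1, a partner of the actin regulator WASP, at chr2:73473745. Its 5 WT samples at rest were at 63.6%, 41.8%, 9.09%, 54.5% and 41.0%, on 22 to 110 calls, whereas the 5 mD3AKO samples at rest were at 86.1% to 100%. At the other times WT means were 83.1%, 91.1% and 89.8% and mD3AKO means 74.9%, 84.8% and 80.1%. The mean of the WT muscles at rest thus stood below the other 7 group means, but the adjusted p of the interaction in edgeR's test was 1.

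Clusters chosen in one set of samples were compared in the other, which had no part in the choice. In samples 1 to 25, taken at rest or 60 min, 498 gene body clusters were lower in mD3AKO with an unadjusted p under 0.05, and in samples 26 to 50 their median difference was -5.86 points and 406 (81.5%) were lower, against 64.0% of all 8686. The 84 that were higher in samples 1 to 25 had a median of -0.60 points in samples 26 to 50, where 48 were lower. In the other direction, 592 clusters lower in samples 26 to 50 had a median of -6.02 points in samples 1 to 25, where 464 (78.4%) were lower, against 61.9% of all, and 71 higher ones had a median of -0.25. The medians where chosen were -13.8 and -13.6 points for the lower clusters and 9.79 and 9.73 for the higher ones, so the losses were smaller in the second set and the gains were near 0 there. Over all clusters of the table the corresponding shares lower were 80.1% and 78.3%. Past an adjusted p of 0.05 were 3 clusters in samples 1 to 25 alone (0.0345%, against 0.049% of all clusters). They were those of Tmem131l, Ssbp3 and Adamts17, with differences of -20.1, -33.2 and -9.90 points in samples 26 to 50. The Ssbp3 cluster rests on 1 CpG with as few as 12 calls in a sample. In samples 26 to 50 alone 5 passed (0.0576%, against 0.0647% of all clusters), those of Slc9a4, Ski, Gng12, Pknox2 and 1 on chromosome 18. The 4 named differed by -19.0, -18.9, -0.75 and -18.4 points in samples 1 to 25. Ski had as few as 20 calls in a sample. Gng12 rests on 1 CpG with as few as 26, and it did not pass in all samples together (edgeR adjusted p = 0.271).

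**Figure D5:**
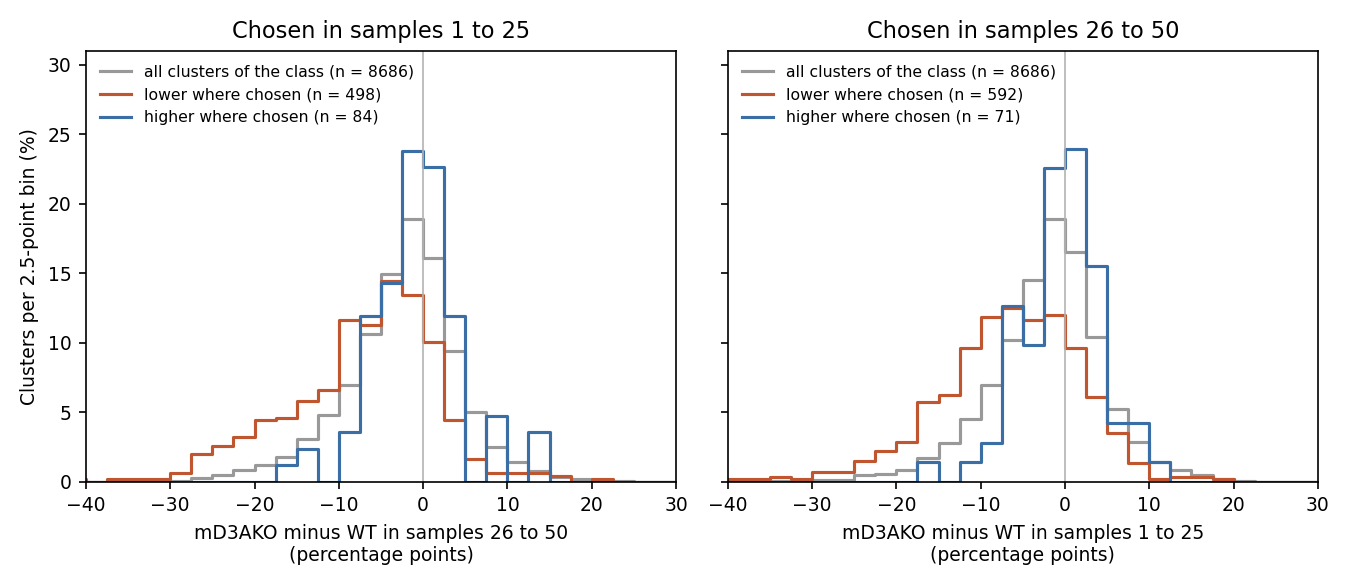
Distribution of the mD3AKO minus WT difference, in percentage points, in samples 26 to 50 for clusters chosen in samples 1 to 25 (left) and the reverse (right); the vertical axis is the percent of clusters per bin. Clusters lower where chosen (498 and 592) are shifted to negative values in the other set, and clusters higher where chosen (84 and 71) centre near 0.

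The rule's limits fell inside a smooth run of values. At 9 CpGs, 912 clusters had a mean WT level of 61.0%, a median difference of -1.66 points and 16 past the test (1.75%), and the 781 gene body clusters with 10 CpGs, just outside, had 61.0%, -1.71 points and 14 (1.79%). At 2 CpGs, 937 clusters had a mean WT level of 64.6%, a median of -1.31 points and 5 past the test (0.53%), and 951 isolated CpGs in gene bodies had 66.2%, -1.30 points and 9 (0.95%). From 2 to 9 CpGs the share past the test rose unevenly from 0.53% to 1.75%, and clusters with 3 or more measured CpGs passed in 1.88% of cases against 0.53% of those with 1.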

How the data were processed

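RRBS methylation of soleus muscle was analysed in 44 of the 50 samples of the series; 6 were not used here. The authors trimmed reads with Trim Galore 0.4.0 and cutadapt 1.9.1, aligned them to mm10 (GRCm38) with Bismark 0.18.1, added both strands, kept autosomal CpGs that reached 8 reads in each sample and placed them in clusters, gene bodies and promoters. Deposited were raw counts of methylated and of unmethylated calls, CpG by CpG. PCR copies are not told apart, so calls overstate independent molecules.

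Counts were summed per cluster and sample, and a level is methylated over all calls in percent. Genotype, time and their interaction were tested with edgeR 4.0.16 (quasi-likelihood, R 4.3.3) in 1 fit of methylated and unmethylated counts over all 51038 clusters and 44 samples. Alternatives were edgeR's likelihood ratio test, a quasi-binomial model (0.5 added to each count) and limma 3.58.1 on log2 ratios of the counts with 1 added. The number of CpGs in the rule counts CpGs of the genome: it matched GRCm38 in 100% of members. Genes, exons and overlapping genes came from GENCODE M21, which matched 4648 of 4653 genes. Clusters named by WT level had an adjusted p under 0.05, at least 50 calls in every sample and the same sign at all 4 times. They were the 5 with the lowest p in each of 3 bands of WT level (under 20%, 20% to 60%, 60% and above). The rule also named those with the lowest p for time, for the interaction and in each of 6 gene lists. Neither these nor clusters named elsewhere were held to those conditions. None on chromosome 18 was named. Some clusters that this rule chose are not reported here. Members, lists and tests were chosen with earlier results of these data known. Scripts were tested on simulated data.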

Additional observations from a re-analysis of the deposited data

Results flagged for a closer look

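A sample was listed when its gap to the nearest other sample of its group exceeded Dixon's 95% critical value, which chance gives in about 1 in 20 groups; 5 values were listed in 62 tests. WT sample 32, at 30 min, was the lowest of 5 in the pooled level, at 54.4% against a group median of 65.8%, and in the clusters with a mean level of 60% or above, at 80.9% against 83.6%. WT sample 22, at 60 min, was the lowest of 6 over the 97 clusters past the genotype test, at 44.9% against 49.8%. WT sample 4, at 60 min, was the lowest of 6 at the single CpG of Tenm4, at 98.5% where the other 5 were at 100%, and at that of Wipf1, at 60.7% against a group median of 95.1%.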

How the results depend on the processing

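The 97 clusters past the genotype test became 307 with edgeR's likelihood ratio test (286 lower), 256 with the quasi-binomial model (254 lower) and 159 with limma (158 lower), sharing 72, 92 and 97 clusters with the 97. The 2 higher by the quasi-binomial model, named after their values were seen, lie in Adra1b and Cd200r3, and the 1 by limma in Cd200r3. The Cd200r3 cluster rests on 1 CpG with as few as 9 calls in a sample. Fewer samples gave 3 in samples 1 to 25 (0.0345%, against 0.049% of all clusters) and 5 in samples 26 to 50 (0.0576%, against 0.0647%). Males gave 7 (0.0806%, against 0.0784% of all clusters) and females 0 (against 0.0255%), with 632 and 617 at an unadjusted p under 0.05. Fewer clusters gave 22 of 3231 with 2 to 4 CpGs and 48 of 2460 with at least 50 calls in every sample. Leaving out WT samples 32 and 42 gave 111 (1.28%, against 1.17% of all clusters) and adding sex 98 (1.13%, against 1.12%). A coverage minimum of 20 gave 75 of 4005 clusters (1.87%, against 1.52% of all clusters). The CpG number was kept as deposited there because it counts CpGs of the genome. This minimum and the limits on calls and measured CpGs were chosen after seeing the data. Leaving out each sample in turn was run with the quasi-binomial model and gave 209 to 282 calls around its 256, and -2.53 to -2.14 points around the -2.31 of the mean level. By time, the likelihood ratio test gave 32, 52, 36 and 23 calls at rest, 10, 30 and 60 min, the quasi-binomial model 0, 2, 22 and 2, limma 3, 1, 4 and 4, and fits of 1 time alone 0, 0, 0 and 0. For time and the interaction the likelihood ratio test gave 56 and 66. The causes of these shifts were not tested. For the alternative tests by time, for time and for the interaction, shares of all clusters were not counted. No cluster that the rule named for the genotype comparison or the gene lists changed direction. Tenm4 and Wipf1, named for time and the interaction, differed in sign between samples 1 to 25 (0.57 and 19.3 points) and 26 to 50 (-5.56 and -6.47). By the likelihood ratio test Por (adjusted p = 0.0776) was not called, and Asph (0.0104) and Ncam1 (0.00243), each on 1 measured CpG, were. No paired analysis was possible because sample numbers are not shared between groups. Between 67.5 and 261 calls in the median cluster limit each level, and calls that are PCR copies make this precision nominal.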
